A study of Homo sapiens with 4 samples.

Results

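The small nucleolar RNA (snoRNA) host genes are genes whose introns hold snoRNAs, and they were taken here by symbol, as every gene named SNHG followed by a number together with GAS5, ZFAS1 and EPB41L4A-AS1. This gave 31 of the 39323 genes listed in each of the 4 RNA-seq libraries. RNA came from RD and JR1 cells, which are established lines of fusion-negative rhabdomyosarcoma, a tumour of cells committed to the skeletal muscle lineage. Each line had been infected with a lentivirus that expressed either shSKP2.2, a short hairpin against SKP2, or shSCR, a scrambled control hairpin, and the labels give the genotype of all 4 groups as WT. The shSCR libraries are called the control and the shSKP2.2 libraries the knockdown below. SKP2 is the subunit of an SCF ubiquitin ligase that picks its substrates, among them cell cycle inhibitors. A single hairpin was sequenced, with 1 library per line and hairpin, so differences within a line could not be set against replicate spread and were not tested there. Both lines were also fitted together, with the line as a block.

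Expression is in TPM, each gene's length-corrected share of the transcripts scaled so that a library totals 1000000, and such values hide how deeply each library was sequenced, so the depth is unknown. SKP2 itself stood at 92.8 TPM in the RD control and 7.40 TPM in the RD knockdown, and at 46.5 TPM in the JR1 control and 2.72 TPM in the JR1 knockdown. The muscle lineage markers MYOD1, MYOG, DES, CHRNA1 and CDH15 were expressed in all 4 libraries, MYF5 was listed at 0 in all of them, and the leukocyte, endothelial and epithelial markers PTPRC, PECAM1, EPCAM and CDH1 reached at most 0.16 TPM. Short structural RNAs (7SL, 7SK, U and Y RNAs, 5S and 5.8S, snoRNAs and vault RNAs) took 50.1% of the TPM in the RD control, 62.2% in the RD knockdown, 57.1% in the JR1 control and 64.9% in the JR1 knockdown. A larger share of such RNA lowers the TPM of all other genes, and the median log2 change over the 12985 genes that averaged 1 TPM or more was -0.27 in RD and -0.21 in JR1. Every change is the log2 ratio, knockdown to control within 1 line, after 1 TPM was added to both values, and is read against these medians. In bulk RNA, fewer cells that express a gene and less of its RNA per cell cannot be told apart.

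A snoRNA host gene is transcribed and spliced like a messenger RNA, and the snoRNA is released from the excised intron by trimming from both ends. Box C/D snoRNAs carry the proteins FBL, NOP56, NOP58 and SNU13 and guide the methylation of ribose in ribosomal RNA, whereas box H/ACA snoRNAs carry DKC1, NOP10, NHP2 and GAR1 and guide the conversion of uridine to pseudouridine. Small Cajal body RNAs (scaRNAs) use the same boxes and guide modification of spliceosomal RNAs. The spliced host RNAs are mostly without a long reading frame, many are degraded in the cytoplasm by nonsense-mediated decay (NMD) when they are translated, and several start with a terminal oligopyrimidine (TOP) tract, as the messenger RNAs of ribosomal proteins do. GAS5 was named for its accumulation in growth-arrested cells.

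In the annotation, 29 of the 31 host genes held at least 1 snoRNA or scaRNA gene on their own strand, and SNHG27 and SNHG28 held none. These 29 spans contained 141 small RNA genes, of which 117 were box C/D, 20 box H/ACA and 4 scaRNA genes. SNHG14, the long transcript that runs antisense to UBE3A on chromosome 15, held 83 of them. By what they held, 14 genes were box C/D hosts, 10 box H/ACA hosts and 4 scaRNA hosts, and SNHG12 held both C/D and H/ACA genes. The sequences of 4 hosted snoRNAs are shown because the boxes in them are what defines these classes. They were read from GRCh38 on the snoRNA's strand.

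SNORD44 in GAS5, chr1:173865968-173866028, minus strand: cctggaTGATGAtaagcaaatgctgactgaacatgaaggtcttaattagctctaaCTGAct
SNORD50A in SNHG5, chr6:85677294-85677368, minus strand: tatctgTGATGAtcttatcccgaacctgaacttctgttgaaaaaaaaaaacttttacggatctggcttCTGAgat
SNORA24 in SNHG8, chr4:118279190-118279320, plus strand: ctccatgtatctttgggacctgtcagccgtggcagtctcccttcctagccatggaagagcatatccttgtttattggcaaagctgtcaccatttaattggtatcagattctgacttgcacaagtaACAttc
SNORA78 in SNHG9, chr16:1965184-1965310, plus strand: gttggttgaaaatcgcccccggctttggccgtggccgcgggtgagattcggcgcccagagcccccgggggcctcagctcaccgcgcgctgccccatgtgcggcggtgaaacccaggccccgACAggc

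Capitals mark box C (TGATGA) near the 5′ end and box D (CTGA) near the 3′ end of both SNORD genes, and the ACA box close to the 3′ end of both SNORA genes. The box C/D genes are short, at 61 bases for SNORD44 and 75 for SNORD50A, and the H/ACA genes are longer, at 131 bases for SNORA24 and 127 for SNORA78.

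Of the 31 host genes, 24 averaged 1 TPM or more and were compared. Another 4 were expressed below that level, with means of 0.99 TPM for SNHG26, 0.48 for SNHG31, 0.27 for SNHG22 and 0.17 for SNHG28. The remaining 3, SNHG18, SNHG25 and SNHG27, were listed at 0 in every library. Since 7 genes were left out by their own low level, the counts below concern the 24 compared genes and not the whole family. The 31 genes summed to 1405 TPM in the RD control, 1174 in the RD knockdown, 1000.2 in the JR1 control and 985 in the JR1 knockdown, which is 0.141%, 0.117%, 0.1% and 0.0985% of the total. As a share of the TPM outside short structural RNAs the same sums were 0.282%, 0.311%, 0.233% and 0.281%, so their order between shSCR and shSKP2.2 depended on whether these RNAs were counted.

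**Figure D1:**
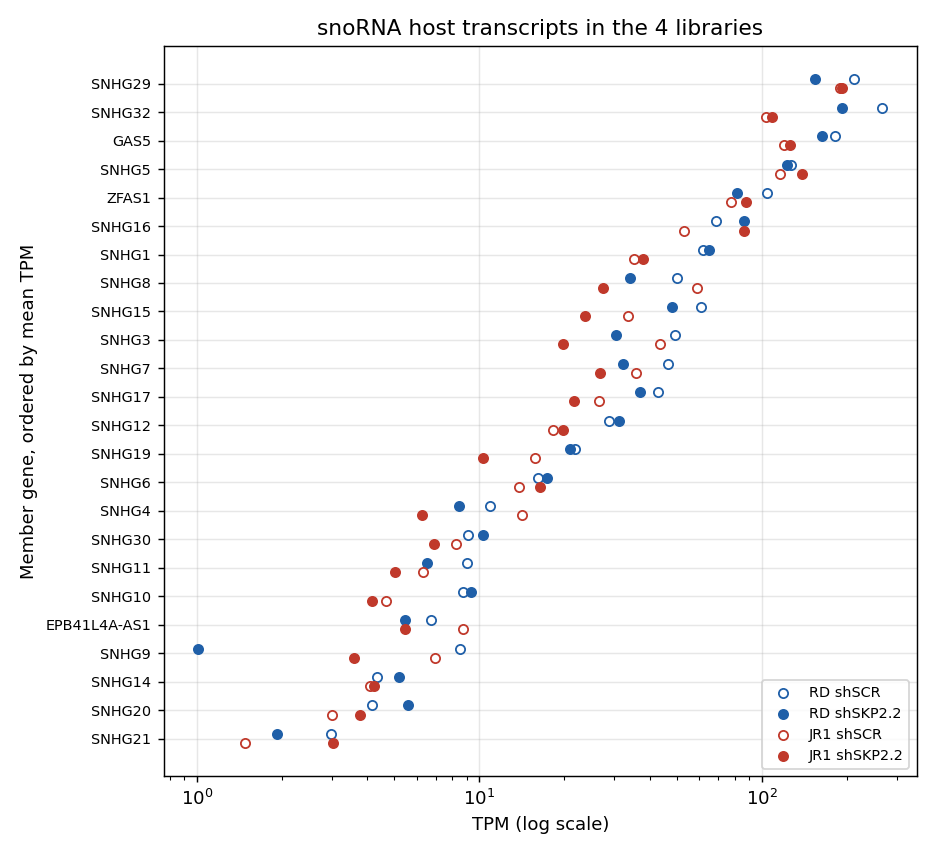
TPM of the 24 compared snoRNA host genes (members) on a log axis, with 1 point per library, RD in blue and JR1 in red, open for shSCR and filled for shSKP2.2, and the genes ordered by their mean. SNHG29, SNHG32, GAS5 and SNHG5 stayed above 100 TPM in all 4 libraries, and the lowest compared gene, SNHG21, lay between 1.48 and 3.04 TPM.

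The most abundant host genes were box C/D hosts. SNHG29 (chromosome 17, 16438987 to 16470648, GRCh38), which holds SNORD49A, SNORD49B and SNORD65, stood at 212 TPM in the RD control, 154 in the RD knockdown, 189 in the JR1 control and 192 in the JR1 knockdown. SNHG32 (chromosome 6, 31834916 to 31839761), the host of SNORD48 and SNORD52, had 267 and 193 TPM in RD and 103 and 108 TPM in JR1, in the order shSCR and shSKP2.2. Both were lower after knockdown in RD, with log2 changes of -0.46 and -0.47, and near level in JR1, at 0.02 and 0.07. GAS5 (chromosome 1, 173863899 to 173868882) had 181 and 163 TPM in RD and 119 and 126 TPM in JR1, with changes of -0.15 and 0.08. SNHG5 (chromosome 6, 85677007 to 85678733) was the most even of the abundant genes, with 127 and 123 TPM in RD and 116 and 138 TPM in JR1. The change of SNHG5 was -0.05 in RD and 0.25 in JR1.

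ZFAS1, SNHG16 and SNHG1 followed, again box C/D hosts. ZFAS1 (chromosome 20, 49278178 to 49289260), the host of SNORD12, SNORD12B and SNORD12C, measured 105 TPM in the RD control, 81.3 in the RD knockdown, 77.6 in the JR1 control and 87.7 in the JR1 knockdown. SNHG16 (chromosome 17, 76557764 to 76565348), the host of SNORD1A, SNORD1B and SNORD1C, measured 68.8 and 86.4 TPM in RD and 53.1 and 86.2 TPM in JR1. Among the 12 most abundant host genes SNHG16 had the largest positive change, 0.32 in RD against 0.69 in JR1, short of the limit of 1 used for a changed gene. SNHG1 (chromosome 11, 62851978 to 62855885) holds 8 box C/D genes, from SNORD22 to SNORD31, and had 62.1 and 65.1 TPM in RD and 35.3 and 37.9 TPM in JR1. SNHG1 thus changed by 0.07 (RD) and 0.10 (JR1).

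The next 5 genes by mean level were H/ACA hosts, and each had a lower TPM in shSKP2.2 than in shSCR of the same line. SNHG8 (chromosome 4, 118278762 to 118279823), the host of SNORA24, went from 49.9 to 34.2 TPM with knockdown in RD, and in JR1 from 59.0 to 27.4 TPM. SNHG3 (chromosome 1, 28505943 to 28510892), the host of SNORA73A and SNORA73B, went from 49.1 to 30.5 TPM with knockdown in RD, and in JR1 from 43.5 to 19.7 TPM. The changes were -0.53 and -1.08 for SNHG8 and -0.67 and -1.11 for SNHG3, in the order RD and JR1. SNHG15 (chromosome 7, 44983023 to 44986696), the host of SNORA9, had 60.7 and 48.2 TPM in RD and 33.7 and 23.7 TPM in JR1. SNHG7 (chromosome 9, 136724594 to 136728184), the host of SNORA17A and SNORA17B, had 46.6 and 32.3 TPM in RD and 35.9 and 26.8 TPM in JR1. SNHG17 (chromosome 20, 38420588 to 38435377), the host of SNORA71A to SNORA71D, had 42.9 and 37.0 TPM in RD and 26.6 and 21.5 TPM in JR1. These last 3 genes changed by -0.33, -0.51 and -0.21 in RD and by -0.49, -0.41 and -0.29 in JR1. Centred on the median of all compared genes, SNHG17 lay above it in RD, at 0.06. With the short structural RNAs removed, SNHG15 and SNHG17 were higher in RD, at 0.07 and 0.19. All other changes of these 5 genes stayed negative on both scales.

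After SKP2 knockdown in RD, none of the 24 compared host genes was higher by 2-fold or more, against 1.08% of all compared genes, and 1 was lower by 2-fold or more, against 7.37%. That gene was SNHG9 (chromosome 16, 1964996 to 1965504), the host of SNORA78, at 8.52 TPM in the RD control, 1.01 in the RD knockdown, 6.94 in the JR1 control and 3.60 in the JR1 knockdown. Its change of -2.24 in RD was the largest of any compared host gene, and it was -0.79 in JR1. SNHG9 spans just 509 bases, and its low value of 1.01 TPM comes from 1 library of unknown depth. In JR1 none of the 24 was higher by 2-fold or more, against 1.78% of all genes, and 3 were lower, against 9.05%. They were SNHG3 and SNHG8, described above, and SNHG4 (chromosome 5, 139273752 to 139283184), the host of SNORA74A and SNORA74D. SNHG4 stood at 10.9 TPM in the RD control, 8.46 in the RD knockdown, 14.2 in the JR1 control and 6.25 in the JR1 knockdown, with changes of -0.33 and -1.07. The counts of 1 and 3 genes of 24 are close to the share of all genes, and the 3 in JR1 lay just past the limit, so that no host gene was lower by 2-fold in JR1 after centring on the median of all genes or after the short structural RNAs were removed.

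With both lines in a single limma fit, with terms for line and hairpin and 1 residual degree of freedom, 5 of the 24 host genes were lower and 1 was higher at an adjusted p under 0.05, against 26.6% and 3.84% of all compared genes. The test sets the mean change of the lines against how far the lines differ, pooled over all genes, and it was added after the values had been seen. The 5 lower genes were the H/ACA hosts SNHG3 (mean log2 change -0.89, SE 0.15, limma adjusted p = 0.0083), SNHG8, SNHG9, SNHG7 and SNHG4, and the higher gene was the C/D host SNHG16 (0.51, SE 0.14, limma adjusted p = 0.040). Each of the 6 moved the same way in both lines. With the short structural RNAs removed, SNHG3 and SNHG9 were still lower (limma adjusted p = 0.046 and 0.032), SNHG16 was still higher (limma adjusted p = 0.0058), and SNHG8, SNHG7 and SNHG4 no longer passed. In that setting 6 of 26 host genes were higher and 2 lower, beside 1608 and 1541 of 14745 genes. The 6 higher genes were SNHG16, SNHG5, SNHG1, SNHG6, SNHG12 and SNHG20. With each library centred on its median, 2 of the 24 were higher and none was lower, beside 1187 and 1356 of 12985 genes. At an unadjusted limma p under 0.05 on the centred values, 7 were higher and 3 lower, while 37.5% of all genes passed. The direction of the calls thus depended on the scaling.

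Lower by any amount were 16 of the 24 genes in RD, against 75% of all compared genes, and 12 of 24 in JR1, against 68.9%. Their median change was -0.23 in RD and -0.06 in JR1, beside -0.27 and -0.21 over all compared genes. When the short structural RNAs were removed and TPM rescaled, the medians of the same 24 genes were 0.14 and 0.21 and 8 and 10 of them were lower, beside medians of 0.08 and 0.03 for all genes. In both lines 10 genes were lower, 6 were higher in both, and 8 moved in opposite directions. Over all 12985 compared genes these counts were 7933, 2209 and 2765. Across the 24 genes the changes in RD and JR1 were correlated at 0.492 (Pearson's r) and 0.557 (Spearman's rho), a description across genes, which are not replicates.

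**Figure D2:**
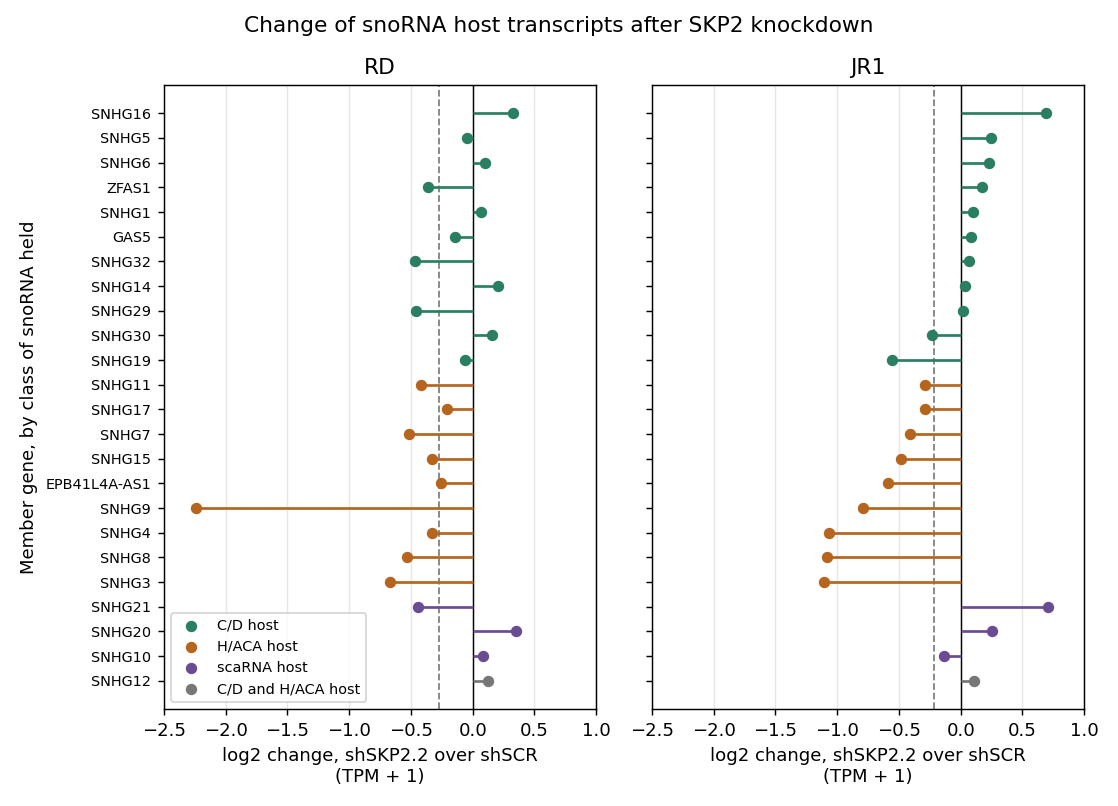
Log2 change of each compared snoRNA host gene after SKP2 knockdown, with a panel for each line, colour for the class of snoRNA held, and a dashed line at the median of all compared genes. SNHG9 in RD lies lowest at -2.24, and SNHG3, SNHG8 and SNHG4 lie below -1 in JR1.

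Grouped by the class of snoRNA they hold, a grouping noticed after the values had been seen and therefore given as a description, the H/ACA hosts had lower medians than the C/D hosts in both lines. All 9 compared H/ACA hosts were lower in shSKP2.2 in RD and all 9 were lower in JR1, against 75% and 68.9% of all compared genes. The medians of these hosts were -0.42 and -0.59. They ranged from -2.24 to -0.21 in RD and from -1.11 to -0.29 in JR1. Of the 11 compared C/D hosts, 6 were lower in RD and 2 in JR1, with medians of -0.05 and 0.08. Centred on the median of all genes, 7 of 9 H/ACA hosts were lower in RD and 9 of 9 in JR1. On that scale 3 of the C/D hosts were lower in RD and 2 in JR1. The values that follow are not centred. In JR1 the classes overlapped through a single gene, SNHG19, the host of SNORD60, at -0.56. In RD they overlapped more, since SNHG32, SNHG29 and ZFAS1 lay between -0.47 and -0.36.

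With the short structural RNAs removed, 9 of 9 H/ACA hosts were still lower in JR1, with a median of -0.36, against 47.5% of all compared genes on that scale, but 5 of 9 in RD, with a median of -0.07, against 41.7%. The C/D hosts then had medians of 0.35 in RD and 0.37 in JR1. The gap between the classes therefore kept its direction on this scale, whereas the direction of the H/ACA hosts in RD did not hold for 4 of them. The classes also differed in level, with a median of the mean TPM of 73.6 for C/D hosts (4.46 to 187) and 32.0 for H/ACA hosts (5.02 to 42.6), and the part of expression level in the gap was not tested. Protein-coding genes that hold snoRNAs had no such gap. Their medians were -0.36 in RD and -0.15 in JR1 for 67 C/D hosts and -0.27 and -0.11 for 70 H/ACA hosts. These genes were taken by span, so the H/ACA hosts include RCC1 and MATR3, which overlap SNHG3 and SNHG4. The 7 other compared hosts that are not protein-coding had medians of 0.05 in RD and 0.18 in JR1. Of their H/ACA hosts, DANCR (0.52 and 0.90), CCT6P3 (0.13 and 0.22) and RPL32P3 (0.05 and 0.18) were higher in both lines. CCT6P1 (-0.12 and -0.32) was lower in both, and LINC00888 (-0.22 and 0.13) moved in opposite directions.

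**Figure D3:**
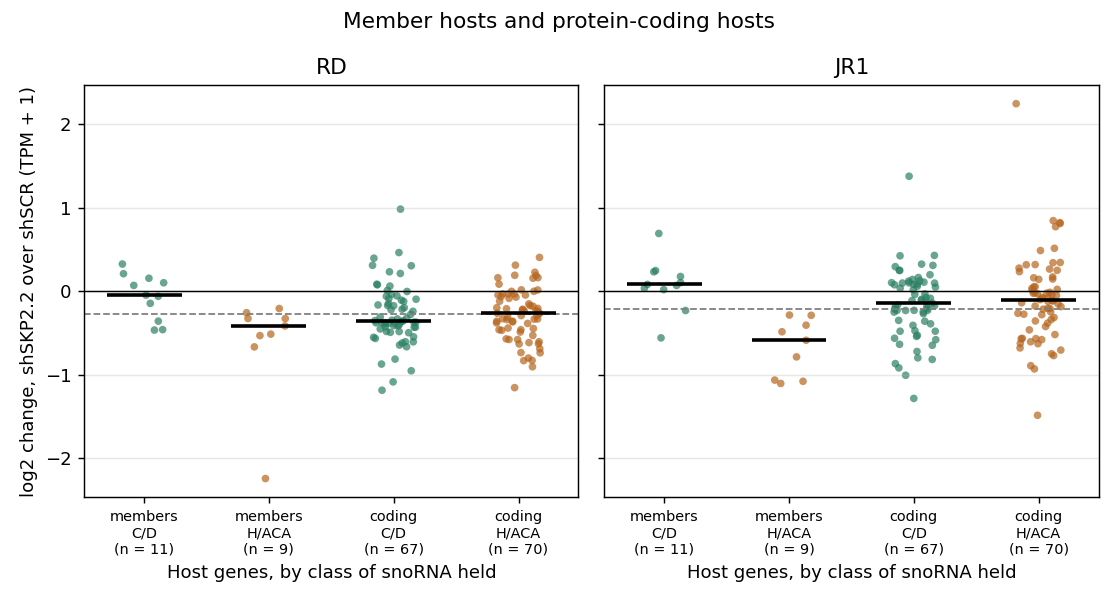
Log2 change after SKP2 knockdown by class of hosted snoRNA, in a panel for each line, for the snoRNA host genes (members) and protein-coding hosts (coding), with 1 point per gene, spread sideways at random, a thick bar at each median and a dashed line at the median of all compared genes. Points of the 9 H/ACA host genes all lie below 0 in both lines, while the medians of the protein-coding C/D and H/ACA hosts lie close together.

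The other compared host genes can be given more briefly. The C/D hosts SNHG19, SNHG6, SNHG30 and SNHG14 had means from 4.46 to 17.2 TPM and changed by -0.06, 0.10, 0.15 and 0.21 in RD and by -0.56, 0.23, -0.23 and 0.03 in JR1. The H/ACA hosts SNHG11 and EPB41L4A-AS1 lay between 5.01 and 9.07 TPM and changed by -0.42 and -0.26 in RD and by -0.29 and -0.59 in JR1. SNHG12, which holds both classes, changed by 0.12 in RD and 0.11 in JR1. Of the scaRNA hosts, SNHG10 changed by 0.08 and -0.14 and SNHG20 by 0.35 and 0.26, in the order RD and JR1. SNHG21, the host of SCARNA15 and the lowest compared gene, moved apart in the lines, from 2.98 to 1.92 TPM with knockdown in RD, and in JR1 from 1.48 to 3.04 TPM.

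The exons of 17 host genes overlap exons of another gene, and the sources used here do not say whether RSEM counted by strand, so reads in such exons may have been split. For SNHG3 the overlapping gene is RCC1, with changes of -0.23 in RD and -0.25 in JR1, smaller than those of SNHG3. MATR3, which overlaps SNHG4, changed by -0.20 and 0.26, and ZNFX1, which overlaps ZFAS1, by -0.81 and -0.52. The partners differed from their host genes in size or direction in these 3 pairs. LRRC75A, which overlaps SNHG29, changed by -0.55 and 0.14, and DIPK1B, which overlaps SNHG7, by -0.10 and -0.38. SNHG29 and LRRC75A thus had like changes in both lines, and SNHG7 and DIPK1B in JR1. FSD2, which overlaps SNHG21, was listed between 0.19 and 1.04 TPM and changed by 0.60 and 0.78. SNHG21 changed by -0.45 and 0.70, so this pair had like changes in JR1 and opposite ones in RD. Without the genes with exon overlap, 6 H/ACA hosts were left and all 6 were lower in both lines, but just 3 C/D hosts, of which 1 was lower in RD and 2 in JR1. The medians of these smaller sets were -0.37 (RD) and -0.54 (JR1) for H/ACA hosts and 0.07 (RD) and -0.23 (JR1) for C/D hosts, so the sign of the C/D median turned in both lines.

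The hosted small RNAs were mostly listed at 0. None of the 117 hosted C/D genes was above 0 TPM in any library, against 12 of 20 H/ACA genes and 3 of 4 scaRNA genes. Over all 568 small RNA genes of these classes in the files, 11 of 357 C/D genes, 69 of 182 H/ACA genes and 15 of 29 scaRNA genes were above 0. Detection went with length, since the shortest gene above 0 had 129 bases, the median C/D gene has 81 bases and the longest hosted C/D gene, SNORD22, has 126. The libraries were poly-A selected and read as pairs of 150 bases, and mature snoRNAs carry no poly-A tail. A value of 0 for SNORD44 or SNORD50A, whose sequences are given above, is therefore no measure of these snoRNAs.

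Of the hosted H/ACA RNAs, SNORA73A in SNHG3, a long H/ACA RNA needed for the processing of ribosomal RNA precursors, had 2946 and 2713 TPM in RD and 3120 and 2383 TPM in JR1, in the order shSCR and shSKP2.2. SNORA73B in the same gene had 913 and 916 TPM in RD and 870 and 742 TPM in JR1. Neither was as much lower as SNHG3 itself, and SNORA73B was level in RD. SNORA24 in SNHG8 was listed at 53.5 TPM in the RD control, 0 in the RD knockdown, 131 in the JR1 control and 29.4 in the JR1 knockdown. SNORA71A in SNHG17 had 351 and 683 TPM in RD and 846 and 371 TPM in JR1, in opposite directions. SNORA74A in SNHG4 had 56.7 and 51.9 TPM in RD and 77.2 and 55.0 TPM in JR1. Small RNAs this short have few positions for a read pair, and 22 host genes have an annotated transcript with the snoRNA inside an exon, so reads of host and snoRNA could be shared. The 15 hosted small RNAs that averaged 1 TPM or more had median changes of 0.00 in RD and -1.25 in JR1. The RD median is the value of SNORA61, which was listed at 0 TPM in both RD libraries. In JR1, SNORA61, SNORA44, SNORA71B, SNORA71C and SNORA74D were listed at 0 after knockdown. In RD, SNORA44 and SNORA24 were at 0 after knockdown, and SNORA71B and SNORA74D in the control. These medians thus rest partly on values listed at 0.

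Some further genes carry an SNHG name as a synonym but not as their symbol. DANCR, also called SNHG13 and a host of H/ACA snoRNA, stood at 29.9 TPM in the RD control, 43.2 in the RD knockdown, 20.7 in the JR1 control and 39.4 in the JR1 knockdown. Its changes of 0.52 and 0.90 were opposite in sign to those of all 9 compared H/ACA hosts of the family. LINC00888 (SNHG33), also an H/ACA host, changed by -0.22 and 0.13, and MEG8 (SNHG23 and SNHG24), a C/D host, by -0.34 and -0.39. Over all 175 other genes that hold a snoRNA on their strand, the median change was -0.31 in RD and -0.14 in JR1. They were taken by span, so they are not fully separate from the family. They include RCC1 and MATR3, which overlap SNHG3 and SNHG4, and readthrough genes such as RPL17-C18orf32, counted beside RPL17. The lowest and highest protein-coding hosts were HAUS6 at -1.32 and COX7C at 0.98 in RD, and RPL27A at -1.49 and MAGED4B at 2.24 in JR1.

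The starts of transcription bear on the TOP tract, which begins with a C followed by pyrimidines. The 20 bases before and the first 30 bases of 6 host genes are shown because they have the motif CTTT or lack it, taken from RefSeq on GRCh38.p14, with CTTT in capitals where it lies within 5 bases of the start.

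SNHG5 start, chr6:85678704-85678753, minus strand: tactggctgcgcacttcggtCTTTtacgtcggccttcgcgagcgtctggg
SNHG32 start, chr6:31834896-31834945, plus strand: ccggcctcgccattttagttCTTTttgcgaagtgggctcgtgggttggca
SNHG19 start, chr16:2155329-2155378, minus strand: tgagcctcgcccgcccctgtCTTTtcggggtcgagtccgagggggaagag
SNHG16 start, chr17:76557744-76557793, plus strand: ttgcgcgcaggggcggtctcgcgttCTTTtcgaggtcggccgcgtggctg
SNHG1 start, chr11:62855856-62855905, minus strand: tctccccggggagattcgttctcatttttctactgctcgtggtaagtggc
SNHG3 start, chr1:28505923-28505972, plus strand: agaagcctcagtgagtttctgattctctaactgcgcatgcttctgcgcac

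CTTT on the sense strand began at the first base in SNHG5, SNHG32, SNHG19 and ZFAS1 and at base 6 in SNHG16. It lay within 5 bases of the start in 8 of the 27 host genes with an entry (29.6%), in 35 of 70 ribosomal protein genes (50%) and in 6.26% of 27305 genes in the table. Among compared host genes it was found in 5 of 10 C/D hosts, 2 of 7 H/ACA hosts and 0 of 3 scaRNA hosts. The RefSeq start differs from that in the files by 464 bases for ZFAS1, 1110 for SNHG12 and 349 for SNHG4, all counted among the 8. It also differs by 163 bases for GAS5 and 49 for SNHG17, both counted as without CTTT. A start without CTTT, as in SNHG1, may still open with pyrimidines. A list of 20 TOP messenger RNAs outside the ribosomal proteins had median changes of -0.32 in RD and 0.05 in JR1, from HNRNPA1 (-0.86 and -0.64) up to PABPC1 at 0.31 in RD and EIF3L at 0.63 in JR1. The 83 compared ribosomal protein genes had medians of -0.33 and -0.09, and 83 were lower in RD and 55 in JR1. The lowest of them were RPL36A at -1.30 in RD and RPL34 at -1.68 in JR1, and the highest RPS27L at -0.01 in RD and RPL22 at 0.37 in JR1. With the short structural RNAs removed the medians of the ribosomal protein genes were 0.07 and 0.20, so their direction turned.

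Among the 19 proteins that build or form snoRNA particles, 17 were lower in RD and 19 in JR1. Over all compared genes, 75% and 68.9% were lower. The medians of the 19 were -0.37 and -0.22, close to those of all genes. With the short structural RNAs removed they were 0.01 and 0.00. Lower by 2-fold or more were PIH1D1 and NHP2 in RD and NHP2 in JR1. NHP2, a core H/ACA protein, went from 73.2 to 35.2 TPM with knockdown in RD, and in JR1 from 55.4 to 20.9 TPM. DKC1, the pseudouridine synthase of the same particle, went from 39.3 to 25.9 TPM with knockdown in RD, and in JR1 from 27.5 to 16.8 TPM. NHP2 and DKC1 were lower on both scales, at -0.65 and -1.10 for NHP2 and -0.19 and -0.42 for DKC1 once the short structural RNAs were removed. NOP10 and GAR1, their partners, changed by 0.08 and -0.18 in RD and by -0.08 and -0.20 in JR1. The median over the 4 core C/D proteins was -0.35 (RD) and -0.24 (JR1), and all 4 were lower in both lines. They ranged from NOP56 at -0.53 to SNU13 at -0.17 in RD. In JR1 they ranged from NOP58 at -0.56 to FBL at -0.02. With the short structural RNAs removed, 1 was lower in RD and 2 in JR1. FBL, the methyltransferase, had 215 and 166 TPM in RD and 135 and 134 TPM in JR1.

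**Figure D4:**
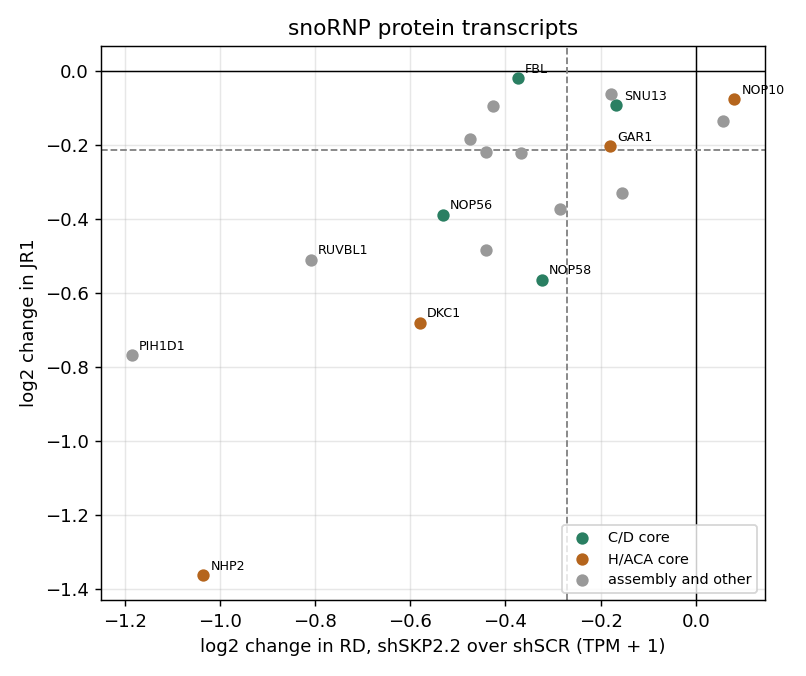
Log2 change after SKP2 knockdown in RD (x axis) and JR1 (y axis) of transcripts for 19 proteins of snoRNA particles and their assembly, 1 point per gene, with dashed lines at the medians of all compared genes. NHP2 lies at -1.03 in RD and -1.36 in JR1, while NOP10 lies at 0.08 and -0.08.

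Since many host RNAs are NMD substrates, the decay factors and other substrates were set beside them. The 14 NMD factors had median changes of -0.27 in RD and -0.12 in JR1 with none past 2-fold, and the lowest were SMG9 at -0.82 in RD and UPF3A at -0.47 in JR1. The 6 messenger RNAs known as NMD substrates had medians of -0.49 and -0.76. Of these, 5 of 6 were lower in RD and 6 of 6 in JR1, against 75% and 68.9% of all compared genes. ATF4 was the lowest in RD at -0.72 and ATF3 in JR1 at -1.12, and the highest were GADD45A at 0.06 in RD and TBL2 at -0.13 in JR1. With the short structural RNAs removed, 4 of the 6 were lower in each line, against 41.7% (RD) and 47.5% (JR1) of all genes.

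RD and JR1 were compared at the same hairpin, as log2 of TPM + 1 in RD over TPM + 1 in JR1. With shSCR, 21 of the 24 host genes were higher in RD, against 71.4% of all genes, and with shSKP2.2 18 were, against 67.8%. Their median difference was 0.37 with shSCR and 0.35 with shSKP2.2, beside 0.23 and 0.17 over all genes. Higher in RD with both hairpins were 16 of the 24, beside 7572 of all 12985 compared genes. With shSCR, SNHG32 was higher in RD by 2-fold or more, at 267 TPM against 103 (a log2 difference of 1.36), against 6.5% of all genes, and no host gene was lower by 2-fold, against 3.45%. With shSKP2.2, SNHG10, the host of SCARNA13, was higher in RD at 9.33 TPM against 4.16, a difference of 1.00, against 5.39% of all genes. SNHG9 was lower in RD at 1.01 TPM against 3.60, a difference of -1.19, against 2.7%. These comparisons use the same 4 libraries as those within a line, so line and library cannot be told apart.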

How the data were processed

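According to the labels and methods, directional libraries were made from poly-A RNA by the authors and sequenced as pairs of 150 bases. Per the submitters' processing notes and the study's methods, reads were aligned to GRCh38 with STAR 2.7.9a and TPM were estimated with RSEM 1.3.2. The gene models are not given in the sources used here. The deposited TPM values, 1 per gene and library, sum to 1000000 and keep no depth, so no counting interval can be given.

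Changes were log2 of the ratio of TPM + 1, a scale that understates the change of low genes. Genes averaging 1 TPM or more across the 4 libraries were compared, and a gene counted as changed at 2-fold. Within a line, 1 library per group allows no test. Both lines were fitted together in limma 3.58.1 (R 4.3.3) on log2(TPM + 1) with line and hairpin as terms, a mean-variance trend and Benjamini-Hochberg adjustment over all compared genes, which takes the lines as replicates of the knockdown. Samples were grouped by their titles. Strand came from GENCODE release 44, or, where that had no entry, from TGATGA in the first 20 and CTGA in the last 15 bases, and hosted snoRNAs lie inside the host's span on its strand. The 5 small RNA genes in GAS5 without a strand were left out. Class came from the symbol. Short structural RNA removal took out 640 genes by symbol.

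Values in every library are given for the 12 host genes with the highest mean, for those changed by 2-fold and for those changed at least 1.5-fold in opposite directions, of which there were none. For each list the highest and lowest genes are named, except for 1 result that is not reported here. NHP2, DKC1, FBL, NOP10, GAR1, the overlapping partners and the hosted snoRNAs were chosen after their values were seen. So were the genes with SNHG synonyms and the other hosts that are not protein-coding. The host genes and lists were chosen with earlier results of these data known. Alternatives were another pseudocount, centring, removal of short structural RNAs, other filters, a 1.5-fold limit and other choices of host genes. The change computation and the fit were checked on simulated data. Python 3.11.15, numpy 2.4.6, pandas 2.3.3 and matplotlib 3.10.9 were used. The other data types of the study were not analysed here.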

Additional observations from a re-analysis of the deposited data

Results flagged for a closer look

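Among the compared host genes and the highest and lowest genes of each list, 13 moved in opposite directions in RD and JR1, and in 4 of these the changes differed by at least 1.5-fold. The difference between the lines was not tested. Of the other hosted snoRNAs, SNORA71A (0.96 and -1.19) and SNORA74D (5.57 and -3.87) also moved in opposite directions. SNHG21 changed by -0.45 (RD) and 0.70 (JR1), which differ by -1.15 on the log2 scale. SNORA71B, hosted by SNHG17, was listed at 0 TPM in the RD control and JR1 shSKP2.2 and at 52.4 TPM in the RD knockdown and 22.5 TPM in the JR1 control, a difference of 10.29 that rests on values listed at 0. DES, a muscle marker, changed by 0.14 (RD) and -0.50 (JR1), a difference of 0.64, and GADD45A, an NMD substrate, by 0.06 and -0.58, a difference of 0.64.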

How the results depend on the processing

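The labels carry no replicate numbers, and the line was the block that could be fitted. Leaving out a library leaves that fit no residual degree of freedom. Under it 5 host genes were lower and 1 higher, 0 and 2 with centred libraries, and 2 and 6 with short structural RNAs removed. The shares or counts over all genes in these settings are given with that fit above. At a limit of 1.5-fold, 2 host genes were lower in RD (1 at 2-fold), and 2 were higher (0) and 5 lower (3) in JR1. At that limit 8 were higher in RD than in JR1 with shSCR (1) and 8 with shSKP2.2 (1). The share of all genes past 1.5-fold was not computed, so these counts cannot be read as a trait of the host genes. Centred on the median of all genes, the 3 lower in JR1 became 0, the 1 higher in RD than JR1 with shSKP2.2 became 0, and the C/D hosts lower in RD went from 6 to 3. With short structural RNAs removed and the filter applied again (26 host genes), 0 were lower and 1 higher in JR1, 3 of 12 C/D hosts and 5 of 10 H/ACA hosts were lower in RD. Adding 0.1 TPM gave 3 host genes higher in RD than JR1 with shSKP2.2. Without genes with exon overlap (9 left), 1 was lower in JR1, 0 were higher in RD than JR1 with either hairpin, and 1 C/D host was lower in RD. The other counts stayed within 1.5 times. The median of the host genes changed sign under centring (0.04 in RD, 0.15 in JR1) and removal (0.14 and 0.21), in JR1 also with no filter (0.00). In JR1 it moved from -0.06, above that of all genes, to -0.23 at a mean of at least 5 TPM (-0.23 for all genes) and to -0.49 without genes with exon overlap (-0.21). The cause was not tested. Without replicates, the spread of a value is unknown, and changes short of the limit cannot be told apart from differences between single libraries.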
